A study of Mus musculus with 7 samples.

Results

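The genes described here encode the subunits of the mitochondrial respiratory chain that lie in nuclear DNA, taken complex by complex from I to V. They were chosen by symbol: the Nduf genes of complex I, Sdha to Sdhd of complex II, the Uqcr genes and Cyc1 of complex III, Cycs, the Cox4 to Cox8 genes of complex IV and the Atp5 genes of complex V. The choice gave 86 genes of the 21902 on the array: 35 of complex I, 4 of complex II, 9 of complex III, cytochrome c (Cycs), 20 of complex IV and 17 of complex V. Ndufa4 and its paralogue Ndufa4l2 were counted with complex IV, to which the Ndufa4 protein is now assigned, and complex V includes Atp5s and Atp5sl, which carry the symbol but are not structural subunits. Of the 86 genes, 83 passed the filter on dim genes and were tested.

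The study measured RNA on 7 single-colour arrays from Treg cells, regulatory CD4 T cells that depend on the transcription factor Foxp3 and dampen immune reactions. The sorted cells were positive for CD4 and YFP and came from spleen and lymph node (pLN in the labels) of mouse chimeras, all with Cre under Foxp3. The 3 KO samples came from Foxp3Cre Pggt1b fl/fl chimeras and the 4 Het samples from Foxp3Cre Pggt1b fl/wt chimeras, so the Het group is not wild type: it carries 1 floxed allele and the same Cre. The product of Pggt1b is the catalytic subunit of the type I enzyme that puts geranylgeranyl lipids on proteins, and the comparison asks how Treg RNA differs with both alleles floxed against 1. The age of the animals, the donor and host cells of the chimeras, and whether each array stands for a separate animal are unknown here, so a p-value reflects only how far these samples scatter, and that scatter may be technical.

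Complexes I to IV pass electrons from NADH and succinate to oxygen by way of ubiquinone and cytochrome c, and complexes I, III and IV pump protons across the inner mitochondrial membrane as they do so. Complex V, the ATP synthase, lets the protons back and makes ATP. Most subunits are encoded in the nucleus and imported, and a small set, all of them central to the complexes, is encoded in mitochondrial DNA (mtDNA); complex II has none of that set. Treg cells are known for a high use of oxidative phosphorylation compared with other activated CD4 T cells.

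The Pggt1b probe set read 6.59, 6.62 and 6.59 on the KO arrays and 7.09, 7.11, 6.71 and 6.97 on the Het arrays, without passing the test (log2 change -0.37 ± 0.13, SE; limma adjusted p = 0.126; exact two-sided permutation p = 0.0571). All 12 measured T cell identity genes lay above the background floor on every array, and none passed the test. By sign 9 of them were lower in KO, against 53.3% of all genes tested, at a median of -0.08. For 5 of the 12, all KO arrays lay below all Het arrays, against 9.82% of all genes tested. The lowest were Cd28, a costimulatory receptor, at -0.58 ± 0.16 (adjusted p = 0.0608) and Cd3d, a chain of the T cell receptor complex, at -0.40 ± 0.12 (0.0768). Of 25 tested myeloid markers 17 were higher in KO cells at the threshold, with a mean log2 level of 7.03 to 8.05 over the list in KO and 5.93 to 6.40 in Het arrays. Of 7 plasmacytoid dendritic cell markers 3 were higher (8.17 to 8.68 against 7.41 to 7.59). Of 5 tested markers of CD8 T cells and NK cells, 2 were higher, 1 was lower and 2 did not pass. Eomes was at 0.85 ± 0.13 (adjusted p = 0.0043), Cd8b1 at 0.65 ± 0.13 (0.0154) and Nkg7 at -1.10 ± 0.12 (0.00064). Of 6 tested B cell markers 1 was higher, Blnk at 0.70 ± 0.17 (0.0418), and 5 did not pass. At the same threshold 2.55% of all genes tested were higher in KO and 3.24% were lower. The defining myeloid markers Csf1r and Mpeg1 were above the floor on all 3 KO arrays and on 2 and 1 of the 4 Het arrays. Mrc1, C1qc, Cd14 and Itgax were above it on 3 KO and 0 Het arrays. They thus passed the filter on dim genes only through the group where they were high. KO array 1 had the highest myeloid level and the lowest T cell identity level. The part of these cells, and of the T cell identity levels, in the results was not tested, and fewer cells of a type cannot be told apart from less RNA per cell in such bulk samples.

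The median change of the subunit genes was below 0 in complexes I, III, IV and V and near 0 in complex II, and most single genes did not pass the test. Over the 83 tested genes the median log2 change, KO minus Het, was -0.23, a median fold of 1.17, beside -0.02 over all 13083 genes tested. By sign, 73 of the 83 (88%) were lower in KO, against 53.3% of all genes tested. At an adjusted p under 0.05 in limma, fitted and adjusted over all genes, 6 of the 83 (7.23%) fell, none rose and 77 did not pass, where 3.24% of all genes tested fell. The 6 were Atp5e and Atp5c1 of the ATP synthase stalk, Ndufa4, Cox7b and Cox6c of complex IV, and Ndufs4 of complex I. All 3 KO arrays lay below all 4 Het arrays for 25 of the 83 genes (30.1%), against 9.82% of all genes, and above them for none, against 9.68%. At an unadjusted p under 0.05, 25 genes were lower (30.1%) and 1 was higher, against 11% and 8.91% of all genes. The genes share the same 7 arrays, so these counts do not come from independent measurements.

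The number that fell depended on the arrays and the scaling used. It was 2 without KO array 1, 1 without KO array 2, 0 without KO array 3, 2 without Het array 1, 0 without Het array 2, 1 without Het array 3 and 8 without Het array 4. After centring of each array on its median it was 0, where 2.22% of all genes tested fell. The median change of the 83 genes was then -0.17, beside 0.05 over all genes tested. Without Het array 1 the median change of the 83 genes was -0.14, beside -0.01 over all genes tested.

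**Figure D1:**
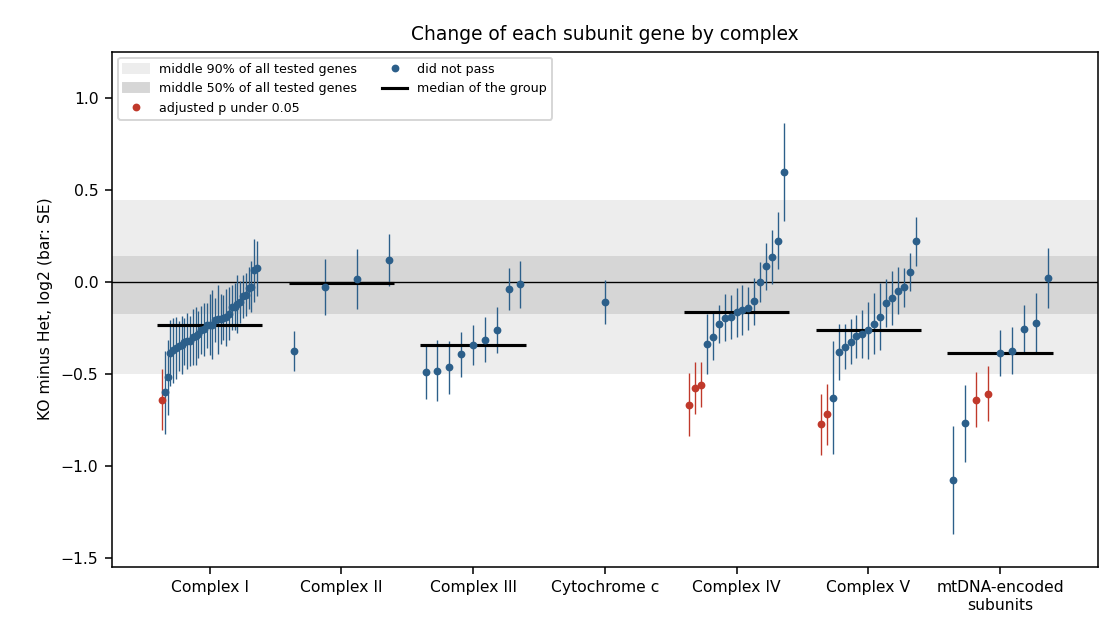
Log2 change, KO minus Het, of each tested subunit gene, grouped by complex along the x axis, with the mtDNA-encoded subunits at the right. Bars are the limma SE, black lines the group medians, red points the genes with an adjusted p under 0.05, and grey bands the middle of all tested genes; the medians of complexes I, III, IV and V lie between -0.35 and -0.17, that of complex II at -0.01.

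Start-site sequences are shown for 3 genes so that letters known to bind regulators of respiratory genes can be seen beside the expression values that follow: Atp5e, the gene with the lowest change, Ndufs4, the complex I gene that fell, and Atp5k, a membrane subunit of complex V chosen after the search because its window, with those of Atp5l and Cox6a1, held the most matches. Each window runs from 250 bases before to 50 bases after the gene's start in RefSeq (GRCm38.p6), written 5′ to 3′ along the gene's strand, which is the minus strand for all 3. Capitals mark matches to a short core motif on either strand: GCGCATG for NRF1, CCGGAAG for ETS factors such as GABP, and ATGGCGG for YY1. In Atp5k the NRF1 core matches both strands, and these matches overlap in 1 run of capitals.
Atp5e, chr2:174464052-174464351: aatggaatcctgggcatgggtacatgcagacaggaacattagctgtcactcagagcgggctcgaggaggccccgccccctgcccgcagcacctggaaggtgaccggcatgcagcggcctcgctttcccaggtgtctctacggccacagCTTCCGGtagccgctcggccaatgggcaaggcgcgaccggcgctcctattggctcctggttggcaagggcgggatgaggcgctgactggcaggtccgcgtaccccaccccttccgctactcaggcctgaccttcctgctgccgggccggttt
Ndufs4, chr13:114388045-114388344: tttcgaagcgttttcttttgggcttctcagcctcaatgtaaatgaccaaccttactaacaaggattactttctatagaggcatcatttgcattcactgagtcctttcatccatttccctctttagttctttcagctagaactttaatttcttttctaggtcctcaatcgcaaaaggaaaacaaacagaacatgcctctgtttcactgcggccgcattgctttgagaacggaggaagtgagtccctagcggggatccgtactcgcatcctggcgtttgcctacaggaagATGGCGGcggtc
Atp5k, chr5:108434350-108434649: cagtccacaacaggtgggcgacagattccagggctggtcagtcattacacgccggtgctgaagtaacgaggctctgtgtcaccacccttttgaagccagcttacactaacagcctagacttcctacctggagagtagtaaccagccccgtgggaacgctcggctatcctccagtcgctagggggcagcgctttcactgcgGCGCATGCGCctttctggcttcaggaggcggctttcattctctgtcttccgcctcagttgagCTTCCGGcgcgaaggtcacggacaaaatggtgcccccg

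Windows were listed for 70 of the 86 genes. The NRF1 core stood in 14 of them (20%), against 7.40% of the 9758 tested genes with a window and 4.41% of all 27025 genes with one. The ETS core stood in 16 (22.9%), against 18.8% and 9.93%, and the YY1 core in 11 (15.7%), against 8.93% and 4.69%. The YY1 matches lay in 8 complex I and 3 complex V windows. These counts took any listed window of a gene. Of the genes that fell, Atp5e held 1 ETS match and Ndufs4 held 1 YY1 match. The windows of Cox7b and Ndufa4, and the first of 2 windows of Atp5c1, held no match to these letters. No window was listed for Cox6c. A match describes letters, not binding.

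Complex I oxidises NADH and hands the electrons to ubiquinone. Of its 35 genes, all tested, 33 (94.3%) were lower in KO by sign, against 53.3% of all genes tested, at a median of -0.24. At the threshold 1 fell (2.86%) and 34 did not pass, where 3.24% of all genes tested fell. The gene that fell was Ndufs4, an accessory subunit of the NADH-oxidising arm whose loss causes a fatal encephalopathy in mice. It read 9.48, 9.34 and 9.24 on KO arrays 1 to 3 and 10.32, 10.10, 9.98 and 9.59 on Het arrays 1 to 4. The groups did not overlap, and Het array 4 lay nearest to the KO arrays. Ndufs4 fell by 0.64 ± 0.16 (SE) on the log2 scale, 1.56-fold (limma adjusted p = 0.0482). It passed in only 1 of the 7 fits that left out an array, the one without Het array 4, and its change without KO arrays 1, 2 and 3 was -0.70, -0.63 and -0.58, and without Het arrays 1, 2 and 3 it was -0.54, -0.61 and -0.65.

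The next smallest p in complex I belonged to Ndufb5, an accessory subunit of the distal membrane arm. It read 9.04, 8.69 and 8.55 on the KO arrays and 9.76, 9.61, 9.34 and 8.75 on the Het arrays. Het array 4 lay inside the KO range, and the change of -0.60 ± 0.22 did not pass (limma adjusted p = 0.161). The highest change in the complex was that of Ndufv1, the flavoprotein that binds NADH, at 0.07 ± 0.15 (adjusted p = 0.853). The 7 nuclear core subunits, which carry the NADH site and the iron-sulphur clusters, had a median of -0.11, and for none of them did all KO arrays lie below all Het arrays. The 28 accessory subunits were all lower by sign at a median of -0.26, with separated groups in 6 (21.4%, against 9.82% of all genes tested). By part of the enzyme, the median was -0.32 over 10 genes of the NADH-oxidising module, -0.10 over 6 of the ubiquinone-reducing module, -0.21 over 9 of the proximal and -0.30 over 10 of the distal membrane arm. These differences between parts of the enzyme were not tested. Without Het array 1 the median of the 35 genes was -0.15.

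Complex II, succinate dehydrogenase, belongs to the tricarboxylic acid cycle as well as to the chain. Of its 4 genes none passed, 2 were lower and 2 higher by sign, and the median was -0.01. The sign of so small a median depended on the scaling: it was 0.06 after median centring and 0.01 after quantile normalization. Under these 2 settings the median over all genes tested was 0.05 and 0.02. Sdha, the flavoprotein that oxidises succinate, read 8.15, 8.32 and 8.18 on the KO arrays and 8.61, 8.66, 8.49 and 8.62 on the Het arrays. Each KO value was lower than each Het value, at a change of -0.38 ± 0.11 (limma adjusted p = 0.0777). Sdhb, the iron-sulphur subunit, read 10.47, 10.25 and 10.21 against 10.65, 10.42, 10.16 and 10.12. The membrane anchor Sdhc read 7.25, 7.32 and 7.30 against 7.50, 7.18, 6.94 and 7.06, and the other anchor, Sdhd, 7.94, 7.76 and 7.71 against 8.19, 7.78, 7.67 and 7.52. For these 3 genes the KO values lay within the Het range, with changes of -0.03 ± 0.15, 0.12 ± 0.14 and 0.01 ± 0.16 (limma adjusted p = 0.952, 0.710 and 0.981).

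**Figure D2:**
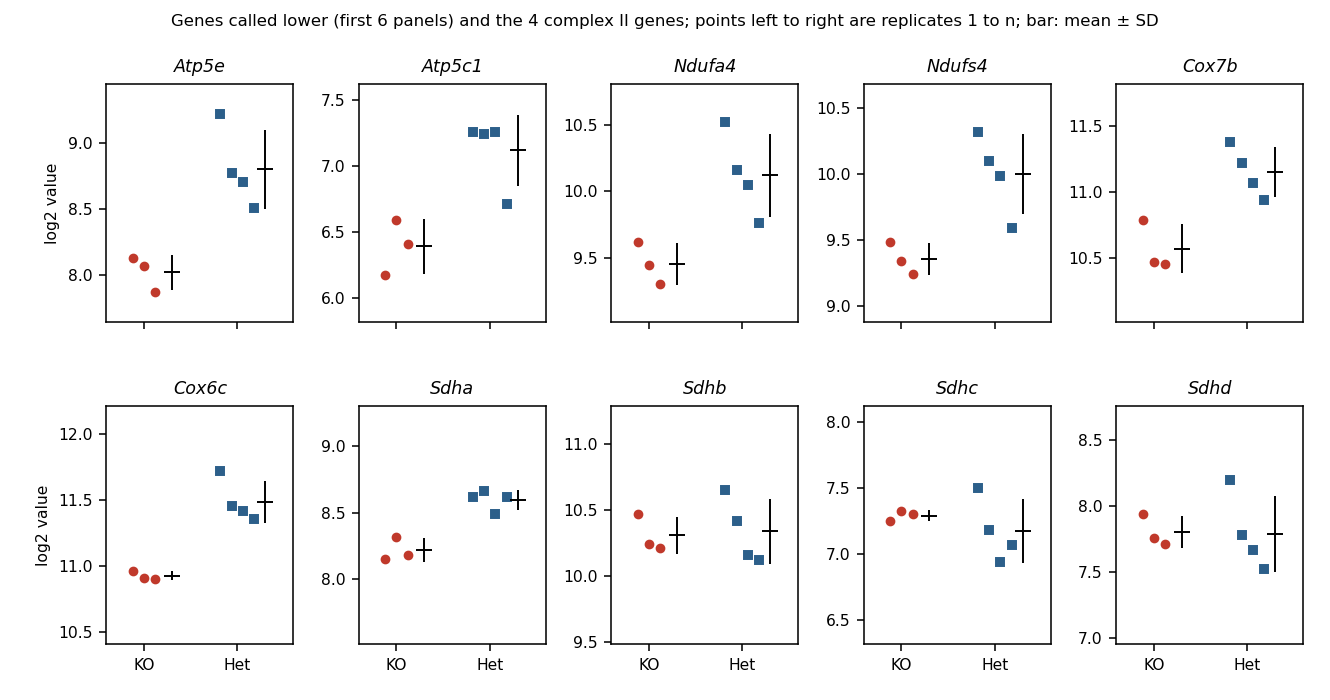
Log2 value on each array of the 6 subunit genes that fell and of the 4 complex II genes, with KO arrays as red circles, Het arrays as blue squares, replicates from left to right and bars for the mean ± SD (n = 3 and 4). Each panel has its own position on the log2 axis but the same span, and the groups are separated in the 6 genes that fell and in Sdha.

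Complex III takes electrons from ubiquinol to cytochrome c. All 9 of its genes were lower in KO by sign, at a median of -0.35, but none passed the test across all genes. The KO arrays lay below the Het arrays for 7 of the 9 genes (77.8%), against 9.82% of all genes tested. Of the 9, 6 (66.7%) were lower at an unadjusted p under 0.05 in limma, against 11% of all genes tested. Uqcr10, a small accessory subunit of the membrane part, read 10.40, 10.41 and 10.37 on the KO arrays and 11.27, 10.85, 10.75 and 10.67 on the Het arrays. The KO arrays lay close together and below every Het array, at a change of -0.49 ± 0.15 (limma adjusted p = 0.0895). Uqcrh, the hinge protein at the docking site of cytochrome c, read 11.65, 11.96 and 11.92 against 12.38, 12.23, 12.17 and 12.17. Its groups were also separated, at -0.39 ± 0.12 (limma adjusted p = 0.0957).

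The 5 small accessory subunits (Uqcr10, Uqcr11, Uqcrb, Uqcrh and Uqcrq) had a median of -0.47, and each had all KO arrays below all Het arrays. The subunits that carry redox centres were Uqcrfs1, the Rieske iron-sulphur protein, at -0.32 ± 0.12 (adjusted p = 0.173) and Cyc1, cytochrome c1, at -0.04 ± 0.11 (adjusted p = 0.896). Of the core proteins, Uqcrc2 was at -0.35 ± 0.11 (adjusted p = 0.0970) and Uqcrc1 at -0.01 ± 0.13 (adjusted p = 0.976), the highest change in the complex. Cyc1 and Uqcrc1 thus had overlapping groups, unlike the other 7 genes. With an intensity trend in the variance model Uqcr10, Uqcrh and Uqcrq passed. After median centring the complex III median was -0.28, beside 0.05 over all genes tested. Cycs, cytochrome c itself, which carries electrons from complex III to complex IV, was at -0.11 ± 0.12 (adjusted p = 0.671).

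Complex IV, cytochrome c oxidase, reduces oxygen to water. Of its 20 genes 17 were tested, of which 3 fell (17.6%, against 3.24% of all genes tested) and 14 did not pass. By sign 13 were lower (76.5%, against 53.3%), at a median of -0.17. Cox6c, a small membrane subunit, read 10.96, 10.91 and 10.90 on the KO arrays and 11.72, 11.45, 11.41 and 11.36 on the Het arrays. The groups were separated by more than the spread within either of them, and Cox6c fell by 0.56 ± 0.12 (SE), 1.47-fold (limma adjusted p = 0.0228). Cox7b, another small membrane subunit, read 10.78, 10.47 and 10.45 against 11.37, 11.22, 11.06 and 10.94. KO array 1 lay nearest to the Het arrays without reaching them, and Cox7b fell by 0.58 ± 0.14, 1.49-fold (adjusted p = 0.0387). Ndufa4, a subunit first described in complex I, read 9.62, 9.44 and 9.30 against 10.52, 10.16, 10.04 and 9.76. Its groups were separated as well, and it fell by 0.67 ± 0.17, 1.59-fold (adjusted p = 0.0479). The changes stayed similar when single arrays were left out, while several calls were lost. Cox6c did not pass without KO arrays 1, 2 or 3 (-0.58, -0.55 and -0.55) or Het arrays 2 or 3 (-0.57 and -0.58). Cox7b did not pass without KO arrays 2 or 3 (-0.53 and -0.52) or Het arrays 1, 2 or 3 (-0.50, -0.56 and -0.61). Ndufa4 passed without Het array 4 and was at -0.75, -0.66 and -0.59 without KO arrays 1, 2 and 3, and at -0.54, -0.66 and -0.69 without Het arrays 1, 2 and 3. Without Het array 1 the complex IV median was -0.11.

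Several complex IV subunits exist in forms from separate genes. Cox4i1, the form of subunit 4 in most tissues, was at -0.30 ± 0.13 (adjusted p = 0.222) and the lung form Cox4i2 at 0.13 ± 0.14 (0.676). The broadly expressed Cox6a1 was at -0.11 ± 0.13 (adjusted p = 0.706) and the heart and muscle form Cox6a2 at 0.22 ± 0.15 (0.479). Cox6b1 was at -0.15 ± 0.13 (adjusted p = 0.588), while the testis form Cox6b2 had the highest change of all 83 genes, 0.60 ± 0.27 (adjusted p = 0.245). Cox7a2 was at -0.34 ± 0.16 (adjusted p = 0.279) and the heart and muscle form Cox7a1 at -0.15 ± 0.12 (0.546). Cox8a was at -0.17 ± 0.13 (adjusted p = 0.534). The probe sets of Cox7b2, Cox8b and Ndufa4l2 were not above the background floor on any array and were left out of the fit. Exact two-sided permutation tests of their values gave p = 0.714, 0.80 and 0.971. Over the 5 tested isoforms best known from particular tissues (Cox4i2, Cox6a2, Cox6b2, Cox7a1 and Cox8c) the median was 0.13, and over the other 12 genes -0.21. That split was made after the values had been seen and was not tested.

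Complex V consists of a catalytic head that makes ATP (F1), a rotor turned by protons and a stalk that holds the head still. Of its 17 genes, all tested, 2 fell (11.8%, against 3.24% of all genes tested) and 15 did not pass. By sign 15 were lower (88.2%, against 53.3%), at a median of -0.27. Both genes that fell belong to the central stalk, the shaft that turns inside the head. Atp5e, the epsilon subunit, read 8.13, 8.07 and 7.87 on the KO arrays and 9.21, 8.77, 8.70 and 8.51 on the Het arrays. The groups were separated, and Atp5e had the lowest change of all 83 genes, -0.78 ± 0.16 (SE), 1.71-fold lower (limma adjusted p = 0.0212). Atp5c1, the gamma subunit, read 6.18, 6.59 and 6.41 against 7.26, 7.24, 7.26 and 6.71. Het array 4 lay close to KO array 2, and the other Het arrays lay close together. Atp5c1 fell by 0.72 ± 0.16, 1.65-fold (adjusted p = 0.0290). RefSeq names pseudogenes for 10 of the 86 genes, Atp5c1 among them, as well as Ndufa12, Ndufs5, Uqcrh, Cycs, Cox5b, Cox7c, Atp5f1, Atp5k and Atp5l, and whether the probes read these copies was not tested. The third gene of the shaft, Atp5d, which encodes the delta subunit, was at -0.05 ± 0.13 (adjusted p = 0.891). Atp5e did not pass without KO arrays 2 or 3 (-0.80 and -0.70) or Het array 2 (-0.79). Atp5c1 did not pass without KO arrays 1 or 3 (-0.61 and -0.73) or Het arrays 1, 2 or 3 (-0.68, -0.68 and -0.68).

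The head subunits that bind nucleotides, Atp5a1 (alpha) and Atp5b (beta, which holds the catalytic site), were at -0.03 ± 0.11 and 0.05 ± 0.10 (adjusted p = 0.918 and 0.852). The 4 genes of the peripheral stalk had a median of -0.26, and the 3 small membrane subunits Atp5j2, Atp5k and Atp5l a median of -0.33. None of these 9 genes passed. The c subunit, whose ring turns as protons pass, is encoded by 3 genes that differ in their import peptide. Atp5g1 read 9.04, 9.15 and 8.89 on the KO arrays and 9.51, 9.39, 9.27 and 9.08 on the Het arrays. Atp5g2 read 8.58, 8.88 and 8.83 against 8.96, 9.05, 8.82 and 8.69. Atp5g3 read 10.03, 10.11 and 9.88 against 10.44, 10.09, 9.998 and 9.87. The groups overlapped in all 3, and their changes of -0.29 ± 0.13, -0.12 ± 0.13 and -0.09 ± 0.15 did not pass (limma adjusted p = 0.268, 0.685 and 0.807). Atp5s, a factor that is not a structural subunit, had the largest SE of the 83 genes, at -0.63 ± 0.31 (adjusted p = 0.290), and Atp5sl the highest change with a complex V symbol, 0.22 ± 0.13 (adjusted p = 0.407). Without Het array 1 the median of the 17 genes was -0.16.

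**Figure D3:**
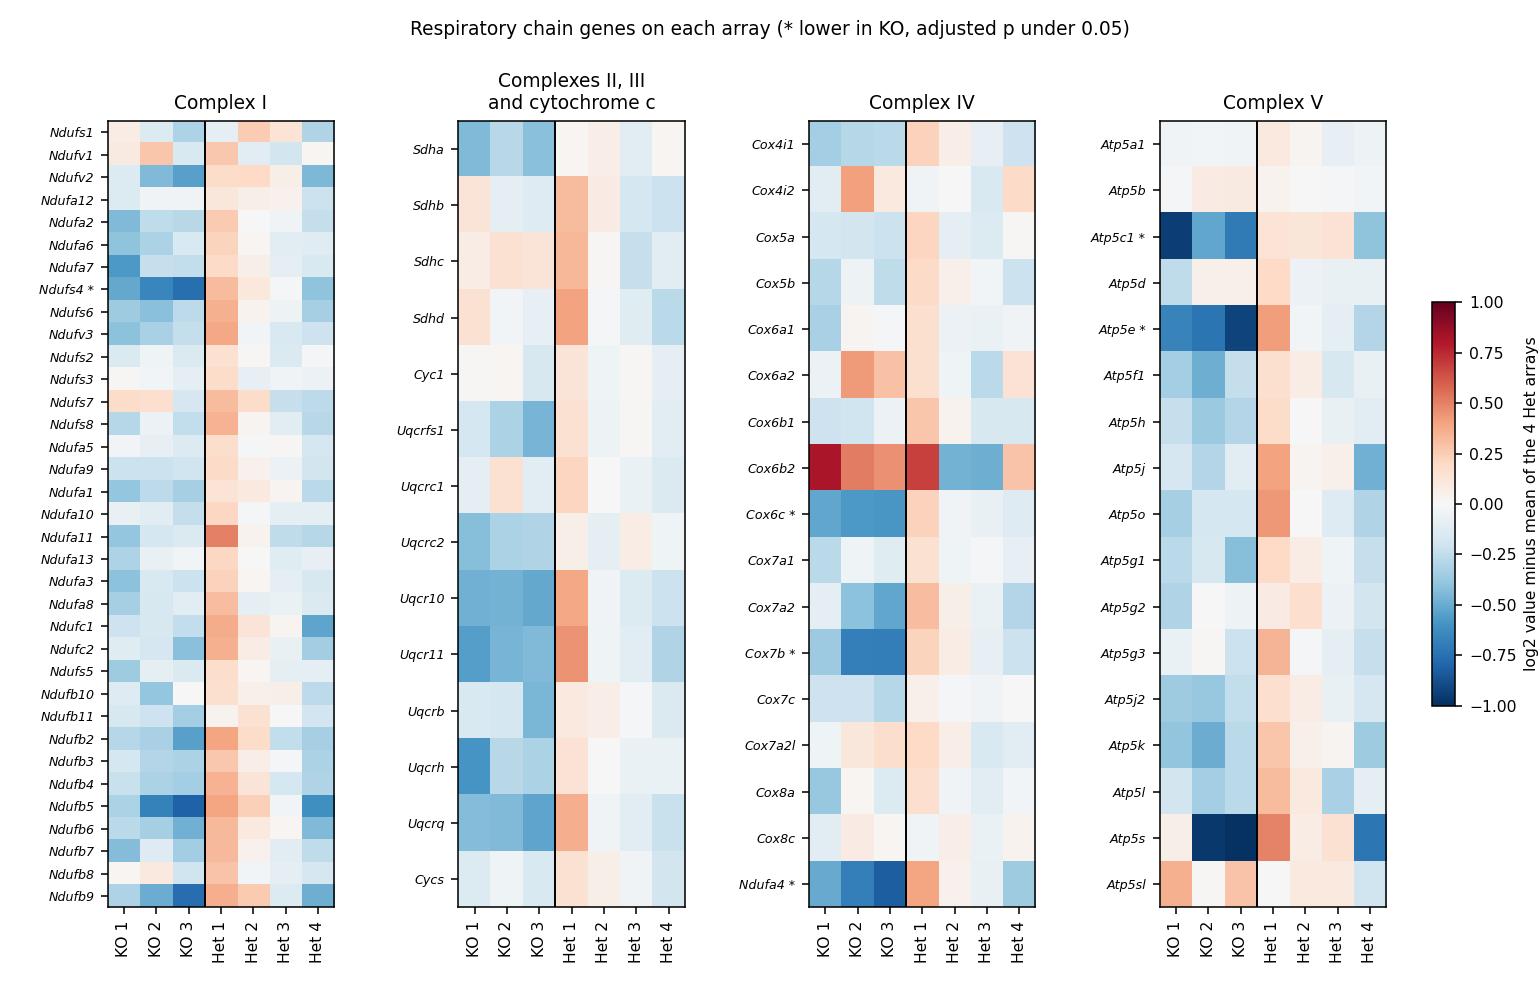
Log2 value of each of the 83 tested genes on each array minus the mean of the 4 Het arrays, by complex, on a colour scale from blue (below) to red (above); stars mark the 6 genes that fell. Het array 1 is above the Het mean in most rows and Het array 4 below it, while Atp5b and Sdhc show little or no blue in the KO columns.

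The Het arrays differed from each other in these genes more than the KO arrays did. The mean deviation of the 83 genes from the Het mean was -0.22, -0.20 and -0.26 on KO arrays 1 to 3 and 0.24, 0.03, -0.08 and -0.19 on Het arrays 1 to 4. Het array 1 was the highest Het array for 73 of the 83 genes and Het array 4 the lowest for 61. The lowest of all 7 arrays was a KO array for 62 genes, and the highest was a Het array for 76. The median SD within a group was 0.121 in KO and 0.187 in Het. Neither these ranks nor these SDs were taken over all genes tested, so they cannot be called particular to the subunit genes. In complex III the groups did not overlap in this mean deviation (KO -0.36 to -0.26, Het -0.15 to 0.22). In complex I Het array 4, at -0.25, lay inside the KO range of -0.28 to -0.21, and in complex V, at -0.24, it lay just above the highest KO array. In complex IV the groups overlapped as well, with Het array 3 at -0.12 inside the KO range of -0.19 to -0.10. Myeloid markers were raised on all 3 KO arrays, most on KO array 1, and their part in these values was not tested. Without KO array 1 the median change was -0.21. The erythroid and platelet marker mean was 8.15, 7.98 and 7.12 on KO arrays 1 to 3 and 7.18, 6.84, 7.17 and 8.03 on Het arrays 1 to 4. It was low on KO array 3, the array with the lowest subunit mean, and high on KO arrays 1 and 2 and Het array 4. The part of these markers in the subunit values was not tested.

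**Figure D4:**
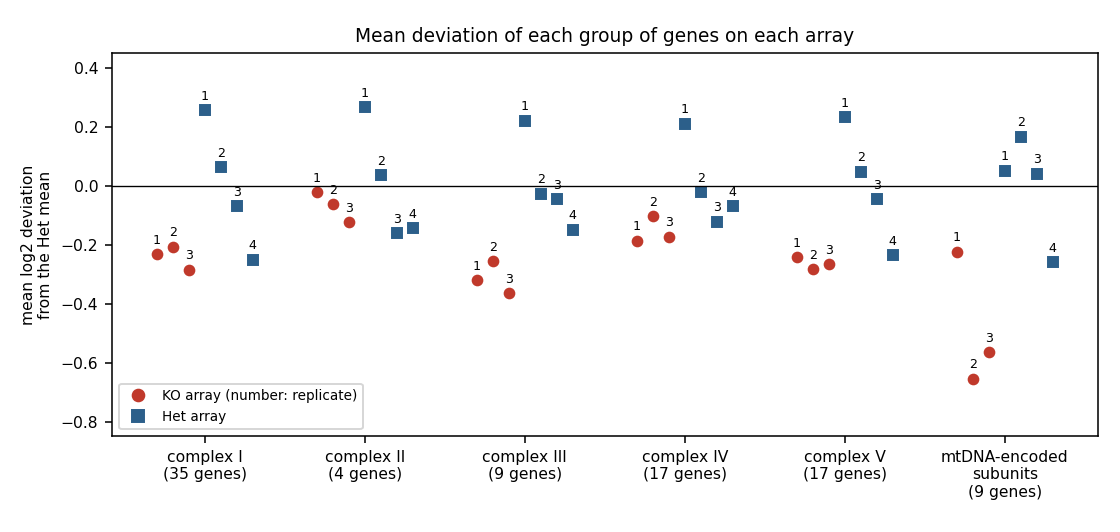
Mean log2 deviation from the Het mean over the tested genes of each complex, with 1 point per array (red circles KO, blue squares Het, numbers for the replicate). The KO and Het points are separated in complex III, and Het array 4 reaches the KO points in complex I and comes close to them in complex V, and Het array 3 lies among them in complex IV.

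The complexes also contain subunits encoded in mtDNA, which the symbol rule did not take in. Of 13 such genes 9 had probe sets with those symbols, all above the floor on every array, and the other 4 were not analysed here. In KO cells 2 of the 9 fell, none rose, and 8 were lower by sign, at a median of -0.39. Of all genes tested 3.24% fell and 53.3% were lower by sign. ND4, a proton-pumping subunit of complex I, read 9.81, 9.40 and 9.32 on the KO arrays and 10.15, 10.34, 10.17 and 9.94 on the Het arrays. COX2, the copper subunit of complex IV that receives electrons from cytochrome c, read 10.57, 10.20 and 10.19 against 10.92, 11.16, 10.95 and 10.69. In both genes the groups were separated and KO array 1 lay nearest to the Het arrays. ND4 fell by 0.64 ± 0.15 (SE), 1.56-fold, and COX2 by 0.61 ± 0.15, 1.53-fold (limma adjusted p = 0.0316 and 0.0378).

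ND3 had the lowest change of the mtDNA genes, -1.08 ± 0.29, and ND2 was at -0.77 ± 0.21, both just short of the threshold (adjusted p = 0.0596). COX1, the catalytic subunit of complex IV, was at -0.39 ± 0.12 (adjusted p = 0.106). ND6, the only protein gene on the opposite strand of mtDNA, was at 0.02 ± 0.16 (adjusted p = 0.971). The mean deviation of the 9 genes was -0.22, -0.65 and -0.57 on KO arrays 1 to 3 and 0.05, 0.17, 0.04 and -0.26 on Het arrays 1 to 4. Het array 4 and KO array 1 thus overlapped, and Het array 1 was not the highest Het array here, unlike in the nuclear genes. The number that fell was 0 without KO arrays 2 or 3 or Het arrays 1, 2 or 3, and 4 without Het array 4. Without KO arrays 2 and 3 and Het arrays 1, 2 and 3 the change of ND4 was -0.59, -0.55, -0.64, -0.58 and -0.63, and that of COX2 was -0.55, -0.54, -0.61, -0.53 and -0.60.

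Genes that build, feed or regulate the chain were read from further lists. Of 49 assembly factors tested, none passed; the medians were -0.24 for complex I (14 genes), -0.22 for II (4), -0.03 for III (6), -0.08 for IV (20) and -0.25 for V (5). Of 18 genes for ubiquinone synthesis and other routes of electrons into the chain, 1 fell and 1 rose. Of all genes tested 3.24% fell and 2.55% rose. Coq3, a methyltransferase of ubiquinone synthesis, read 7.79, 7.67 and 7.14 on the KO arrays and 8.69, 8.38, 8.44 and 7.99 on the Het arrays. Its groups were separated and it fell by 0.84 ± 0.19, 1.79-fold (adjusted p = 0.0295). Gpd2, the mitochondrial glycerol 3-phosphate dehydrogenase, which feeds electrons to ubiquinone without complex I, read 7.70, 7.91 and 7.75 against 7.47, 7.28, 7.01 and 7.31. All its KO values lay above all its Het values, and it rose by 0.52 ± 0.13 (adjusted p = 0.0465). Coq3 did not pass without KO arrays 2 or 3 (-0.91 and -0.65) or Het arrays 1, 2 or 3 (-0.74, -0.84 and -0.82). Gpd2 passed in 1 of the fits that left out an array, the one without Het array 1, and was at 0.57, 0.46 and 0.54 without KO arrays 1, 2 and 3 and at 0.53, 0.44 and 0.53 without Het arrays 2, 3 and 4.

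The 17 genes of the tricarboxylic acid cycle and pyruvate dehydrogenase had a median of 0.08, and none passed the threshold. By sign 5 were lower and 12 higher, where 53.3% of all genes tested were lower. The highest was Cs, citrate synthase, at 0.33 ± 0.12 (adjusted p = 0.147). The 7 tested carriers for ADP, ATP, phosphate and protons had a median of -0.07 and none passed. Of 21 import genes 17 were lower by sign at a median of -0.20 and 1 fell. Of all genes tested 53.3% were lower by sign and 3.24% fell. The 1 import gene that fell was Tomm7, a small subunit of the outer membrane translocase, by 0.53 ± 0.13 (adjusted p = 0.0350). Tomm7 read 11.19, 11.18 and 11.11 on the KO arrays and 11.95, 11.69, 11.65 and 11.50 on the Het arrays. Its groups were separated, yet it passed in only 1 fit that left out an array, the one without Het array 4, with -0.55, -0.54 and -0.51 without KO arrays 1, 2 and 3 and -0.45, -0.54 and -0.55 without Het arrays 1, 2 and 3. Among 16 regulators of mitochondrial biogenesis 1 rose and none fell, at a median of -0.07, where 2.55% of all genes tested rose and 3.24% fell. Myc, which drives cell growth and mitochondrial genes, read 11.22, 11.12 and 11.21 on the KO arrays and 10.64, 10.63, 10.66 and 10.59 on the Het arrays. These groups were tight and separated, and Myc rose by 0.55 ± 0.10 (adjusted p = 0.0113), a call that every setting tried kept. Nrf1, the factor whose letters were searched above, was at 0.14 ± 0.11 (adjusted p = 0.516), Gabpa, the DNA-binding subunit of GABP, at -0.09 ± 0.16 (0.817), Yy1 at 0.36 ± 0.11 (0.0896), and Tfam, which packs and transcribes mtDNA, at -0.36 ± 0.16 (0.231).

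**Figure D5:**
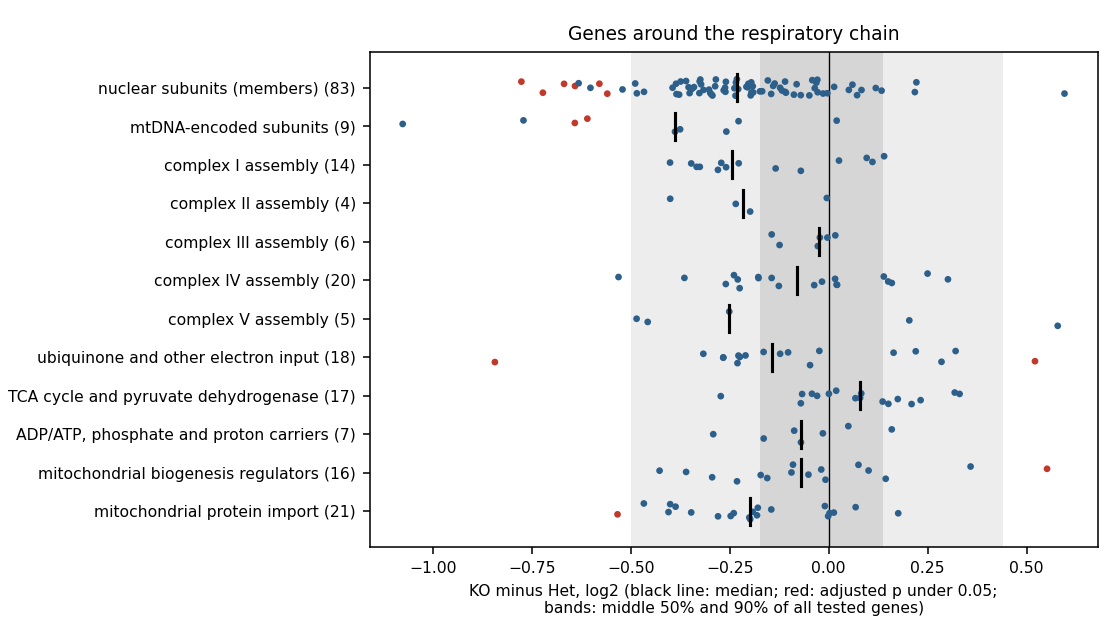
Log2 change, KO minus Het, of each tested gene in the nuclear subunits, the mtDNA-encoded subunits and the related lists (number of genes in brackets). Red points passed an adjusted p under 0.05, black lines are medians and grey bands show the middle of all tested genes; the median of the tricarboxylic acid cycle list is the only one above 0, at 0.08.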

How the data were processed

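RNA from 3 KO and 4 Het Treg samples was measured on Affymetrix arrays. The deposited values are on the log2 scale and come from RMA, run by the authors with Affymetrix Expression Console 1.1, per the submitters' processing notes. RMA corrects background, equalises the arrays' distributions and summarises probes, so a shift shared by most genes would be reduced. The deposited values were still not fully level. Array medians over all probe sets were 5.93 to 6.05 in KO and 6.00 to 6.12 in Het. Per the labels' protocols the RNA was amplified before labelling. Both deposited tables hold the same values.

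Groups came from the genotype labels, and replicate numbers follow the order of deposit and pair no samples. Of 28846 probe sets, 22203 had 1 gene symbol and 6643 none. Each gene was read from its brightest probe set on average, and 1 set's level was never compared with another's. A gene was kept if at least 3 arrays exceeded a floor, the 95th percentile of 1117 olfactory receptor probe sets on that array (5.48 to 5.77), which left 13083 genes. The test was limma's lmFit and eBayes (limma 3.58.1, R 4.3.3; tested on simulated data), with Benjamini-Hochberg adjustment over all of them and a threshold of 0.05. The smallest exact p that 3 against 4 arrays allow is 0.0286. Folds were taken from the log2 change and are compressed near background.

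Arrays of 1 genotype correlated at 0.971 to 0.987 and of different genotypes at 0.942 to 0.964. The number of arrays limits the precision, and no batch or scan date was used here. Named genes are those that fell, the members of each complex with the smallest p and the lowest and highest change, the complex II genes, isoform pairs, and called genes of the other lists, with other examples named after their values were seen. The members, lists and settings were chosen with earlier results of these data known. Symbols were matched to RefSeq, 83 directly and 3 by synonym. Longer NRF1 and YY1 motifs were searched first, and the 7-letter cores reported replaced them after those results had been seen. The other settings were scaling, filter, floor, probe set choice, variance model, the source table and leaving out each array.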

Additional observations from a re-analysis of the deposited data

Results flagged for a closer look

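The 4 Het values were checked in 100 cases, each a single gene or a mean over genes. In 3 of these, all single genes, 1 Het array lay far from the other 3, by Dixon's test at its 95% level. Chance alone meets that level in about 1 of 20 cases. Atp5c1, the gamma subunit of the ATP synthase, read 6.71 on Het array 4 and 7.24 to 7.26 on the other Het arrays, so the low array lies on the side of the KO values. Cox6a1 of complex IV read 10.99 on Het array 1 and 10.76 to 10.79 on the others. Atp5d, the delta subunit of the ATP synthase, read 9.86 on Het array 1 and 9.58 to 9.60 on the others.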

How the results depend on the processing

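The medians of the complexes moved by less than the spread between replicates under every setting tried, although that of complex II, near 0, changed sign. Over all genes 424 fell and 333 rose; the counts were 697 and 547 with array weights, 291 and 406 after median centring, 383 and 391 after quantile normalization, 608 and 478 with an intensity trend, and 240 to 455 and 209 to 290 when 1 array was left out. Of the subunit genes 6 fell; the number was 0 after median centring, 3 with no filter on dim genes, 10 with an intensity trend and 0 to 8 when 1 array was left out. Of the mtDNA-encoded genes 2 fell, and the number was 0, 1 and 6 under the same first 3 settings, 6 with array weights and 0 to 4 when 1 array was left out. These mtDNA settings were applied after the data were seen. The causes were not tested. Among named genes that did not pass, Sdhb was at 0.034 and Uqcrc1 at 0.048 after median centring, and Uqcrc1 at 0.018 with array weights. The median over all genes tested was 0.046 after median centring and 0.0091 with array weights. Leaving out 1 array gave -0.17 to 0.025 for Atp5g3, -0.0032 to 0.25 for Cox4i2, -0.18 to 0.0017 for Cox6a1, -0.031 to 0.18 for Ndufv1, -0.11 to 0.076 for Sdhb, -0.076 to 0.15 for Sdhd and -0.096 to 0.056 for Uqcrc1. No paired analysis was possible because the replicate numbers only follow the order of deposit. Dim genes sit near the array background, where changes are compressed.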
